A study of Mus musculus with 16 samples.

Results

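The kynurenine aminotransferases are the enzymes that turn kynurenine, a breakdown product of tryptophan, into kynurenic acid. The genes were taken by symbol from a list of 5: Ccbl1 (now Kyat1, enzyme KAT1), Ccbl2 (now Kyat3, KAT3), Aadat (KAT2), Got1 and Got2 (KAT4). Ccbl1, Ccbl2, Got1 and Got2 were found in both tables, so 4 of the 5 were described, among 16882 genes listed in both tissues. Aadat was not analysed here.

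RNA of quadriceps muscle and of brown adipose tissue was sequenced from male C57BL/6 mice aged 10 weeks and housed at room temperature. Mice homozygous for uORF-TAA, an allele of Ppargc1a whose name joins an upstream open reading frame with the stop codon TAA, were set against wild-type littermates, with 4 libraries of each genotype in each tissue and 16 in all. Ppargc1a encodes PGC-1alpha, a transcriptional coactivator of mitochondrial genes. The labels name no Cre or transgene and do not state if each mouse gave both tissues.

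Kynurenine is made from tryptophan by dioxygenases and a formamidase, and it can cross into the brain, whereas kynurenic acid crosses poorly. In skeletal muscle, mouse studies of exercise and of muscle PGC-1alpha have tied PGC-1alpha and the nuclear receptors PPARalpha and PPARdelta to higher expression of these aminotransferases. All of them also handle other amino acids: KAT1 and KAT3 act on glutamine and cysteine conjugates, and Got1 and Got2 encode the cytosolic and mitochondrial aspartate aminotransferases of the malate-aspartate shuttle, which carries reducing equivalents into mitochondria.

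The reads were 75 bases long, so a gene can be counted apart from a relative only where their sequences differ within that length. The coding sequences of Ccbl1 and Ccbl2 were identical at 61.6% of 1252 aligned bases, and those of Got1 and Got2 at 58.8% of 1206. The longest run that each pair shared exactly was 12 bases, shown here in capitals within the GENCODE M21 coding sequences, to show how far each pair can be told apart. The run started at base 754 of the Ccbl1 and base 856 of the Ccbl2 coding sequence, and at base 217 of Got1 and base 127 of Got2, counting from the first base of the start codon.
Ccbl1: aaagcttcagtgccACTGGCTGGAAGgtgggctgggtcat
Ccbl2: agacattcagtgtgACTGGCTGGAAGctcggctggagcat
Got1: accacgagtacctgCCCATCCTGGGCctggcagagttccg
Got2: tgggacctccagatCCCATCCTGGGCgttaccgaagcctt
Got2 has a near-identical copy elsewhere, the processed pseudogene Got2-ps1, which matched its coding sequence at 99.1% of 1293 bases and shared an unbroken run of 315 bases with it. Reads wholly within that run, or within any other run that the pair shares, cannot be assigned to one or the other by sequence. The Got2 values are therefore uncertain in how such reads were counted. Exons of Ccbl2 overlap the antisense gene Gm15540 and those of Got2 the opposite-strand gene Gm45760, and the sources do not say whether counting used strand.

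The levels are given first, since the aminotransferases were distributed very differently in brown fat and quadriceps. Each deposited table holds 1 mean normalized count per gene over the 8 libraries of a tissue and no value per library, so levels carry no spread and no test. For comparison between genes the mean was taken per 1000000 of the table's summed means and per kilobase of the longest coding transcript, called level units here. The tables were normalized separately, so ratios between tissues depend on the scaling chosen.

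Ccbl1 had 15.8 level units in brown fat and 3.91 in quadriceps, from mean normalized counts of 417 in brown fat and 169 in quadriceps in the authors' deposited tables. Ccbl2 had 23.9 level units in brown fat and 2.90 in quadriceps, from deposited means of 1291 in brown fat and 257 in quadriceps. Both KAT1 and KAT3 mRNAs thus stood higher in brown fat, by 4.05-fold for Ccbl1 and 8.26-fold for Ccbl2. Scaled by the median ratio of genes instead, which lowers every ratio of brown fat to quadriceps by the same factor, they stood 2.16-fold and 4.397-fold higher. Of the 9282 genes whose mean reached 50 in both tissues, 6.49% had a higher ratio of brown fat to quadriceps than Ccbl2 and 19.4% a higher one than Ccbl1.

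The aspartate aminotransferases ran the other way. Got1 had 37.4 level units in brown fat and 245 in quadriceps, from means of 987 in brown fat and 10626 in quadriceps in the authors' deposited tables. Got2 had 14.99 level units in brown fat and 74.0 in quadriceps, from deposited means of 486 in brown fat and 3939 in quadriceps. The ratio of brown fat to quadriceps was 0.152 for Got1 and 0.203 for Got2, or 0.0812 for Got1 and 0.108 for Got2 when scaled by the median ratio, with 2.77% and 3.56% of the same 9282 genes at lower ratios. In quadriceps Got1 was higher per kilobase than 99.3% of genes.

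The order of the genes therefore differed between tissues. In brown fat it was Got1, Ccbl2, Ccbl1, Got2, with Got1 2.36 times Ccbl1 and Got2 0.947 of Ccbl1. In quadriceps it was Got1, Got2, Ccbl1, Ccbl2, with Got1 62.8 times Ccbl1. Of the summed level of the 4 genes, Ccbl1 and Ccbl2 held 17.2% and 26.0% in brown fat, against 1.198% and 0.889% in quadriceps. With the coding length in place of the transcript length, Ccbl2 moved ahead of Got1 in brown fat (73.6 and 62.0 level units) and ahead of Ccbl1 in quadriceps (8.91 and 6.30). Got2 also moved ahead of Ccbl1 in brown fat (29.3 and 25.5). The positions of Ccbl2 in both orders rest on its transcript of 4206 bases, the longest of the 4, against a coding length of 1368.

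**Figure D1:**
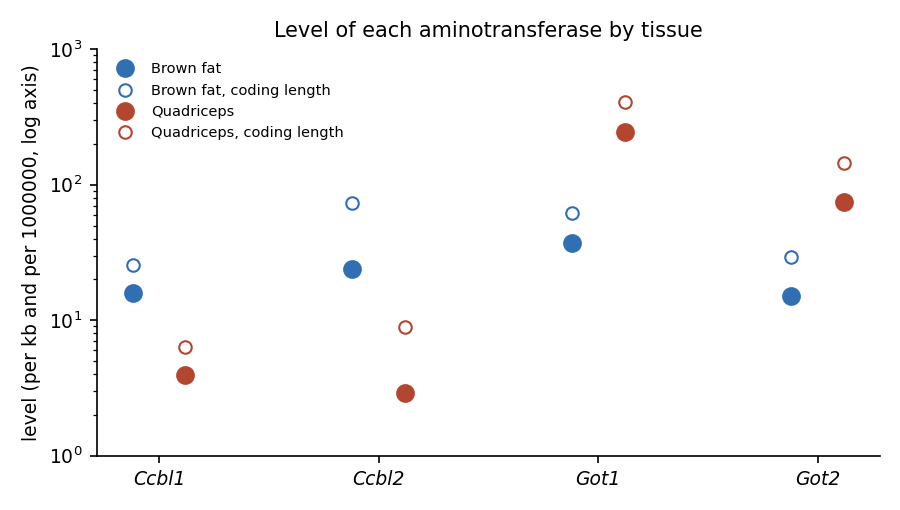
Level of each aminotransferase mRNA as the authors' mean normalized count per 1000000 of the table's sum and per kilobase, on a log axis, in brown fat (blue) and quadriceps (red). Filled points use the transcript length and open points the coding length, each point is 1 mean over 8 libraries, and Ccbl1 and Ccbl2 lie higher in brown fat while Got1 and Got2 lie higher in quadriceps.

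Markers of the tissues were checked next to these levels. The 5 genes listed as brown adipocyte markers were Ucp1, Cidea, Adipoq, Fabp4 and Plin1. They summed to 22948 per 1000000 in brown fat and 320 in quadriceps. Of the sum in quadriceps, Fabp4 alone gave 280, Cidea 2.81 and Ucp1 0.318, so it is not read as brown adipocyte mRNA. The thermogenic uncoupler Ucp1 had a mean of 47561 in brown fat and 6.70 in quadriceps in the authors' deposited tables. The 5 myofibre markers summed to 7312 per 1000000 in brown fat and 159540 in quadriceps. Creatine kinase Ckm stood in brown fat at 0.0667 of its quadriceps level, fast myosin Myh4 at 0.0327, fast troponin Tnnt3 at 0.0513, skeletal actin Acta1 at 0.0845 and myoglobin Mb at 0.245. Myofibre mRNA was thus present in the brown fat libraries. The ratios of Got1 and Got2, 0.152 and 0.203, lay below that of Mb and above those of Ckm, Myh4, Tnnt3 and Acta1. How much of the brown fat Got1 and Got2 mRNA came with it was not tested. In bulk tissue, fewer cells of a type and less RNA per cell cannot be told apart.

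The main question of the design was whether the mutant allele changed expression in each tissue. Neither table's header names its numerator. The order in which each table names the genotypes was read as numerator first, so the brown fat sign was turned and every fold change is uORF-TAA over wild type. If that reading fails for a tissue, the directions in that tissue turn over. Of the 8 tests of the aminotransferases, 4 genes in each of the tissues, 0 passed the threshold of 0.05 on the adjusted p of the authors' deposited DESeq2 results, and 0 had an unadjusted p under 0.05. Of the genes with an adjusted p, 0.00% of 17521 passed the threshold in quadriceps and 0.0863% of 9272 in brown fat. Of all genes with a p, 2.00% of 17521 in quadriceps and 2.07% of 17973 in brown fat had an unadjusted p under 0.05. With so few calls anywhere, 0 among 8 tests is near the background and is not a result particular to these genes.

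In quadriceps the lowest values were those of Got1 and Ccbl2. The authors' deposited table put Got1 at a log2 fold change of -0.16 ± 0.13 (SE), with an unadjusted p of 0.197 and an adjusted p of 1.00 by DESeq2. It put Ccbl2 at -0.15 ± 0.11 (SE), with an unadjusted p of 0.151 and an adjusted p of 1.00 by DESeq2. Both intervals included 0, and 10.2% of all genes had a smaller p than Got1 and 7.32% a smaller p than Ccbl2. In the same deposited table Ccbl1 stood at 0.05 ± 0.13 (SE) and Got2 at 0.01 ± 0.09 (SE), with adjusted p = 1.00 each by DESeq2. The median of the 4 was -0.07, beside 0.0024 over all genes tested.

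As deposited, the fold changes of Ccbl2, Got1 and Got2 lay closer to 0 in brown fat than in quadriceps. That order can depend on the shrinkage described below. The log2 fold changes in the authors' deposited table were 0.05 ± 0.10 (SE) for Ccbl1, -0.05 ± 0.12 (SE) for Ccbl2, -0.05 ± 0.08 (SE) for Got1 and -0.0036 ± 0.10 (SE) for Got2, with adjusted p = 1.00 each by DESeq2. The unadjusted p ran from 0.552 for Got1 to 0.972 for Got2. The median of the 4 was -0.03, beside 0.0015 over all genes tested. Thus 3 of the 4 were below 0 in brown fat and 2 of the 4 in quadriceps, and each of the 8 intervals included 0. Among all genes tested, 8778 of 17973 were below 0 in brown fat and 8465 of 17521 in quadriceps.

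A p that misses the threshold does not show equal expression, so the intervals matter. The deposited fold changes behave as shrunken towards 0. The deposited standard error is small for rare genes and rises with the mean count to a ceiling of 0.135 in quadriceps and 0.127 in brown fat. It lies within 1% of the ceiling for 11.2% of genes in quadriceps and 9.22% in brown fat. At means of 1000 to 3000 its median is lower again, 0.113 in quadriceps and 0.0997 in brown fat. A fold change and error multiplied by the same shrinkage factor under a normal prior would give that shape, with a prior SD of 2 times the ceiling. Under that reading, chosen after the values were seen, each deposited error has 2 solutions before shrinkage, a smaller and a larger one, while the test statistic and its p stay as they are.

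With the smaller solution the 95% interval for Got1 in quadriceps ran from 0.654 to 1.09-fold, uORF-TAA over wild type. That for Ccbl2 in quadriceps ran from 0.732 to 1.05-fold, and those of the 6 other values lay between 0.720 and 1.37-fold. On that reading a rise of Got1 or Ccbl2 mRNA in uORF-TAA quadriceps by more than 1.09-fold was outside the interval. With the larger solution the intervals were far wider, from -1.25 to 0.26 on the log2 scale for Got1 and from -1.86 to 0.29 for Ccbl2. The deposited columns do not say which solution holds for a gene.

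**Figure D2:**
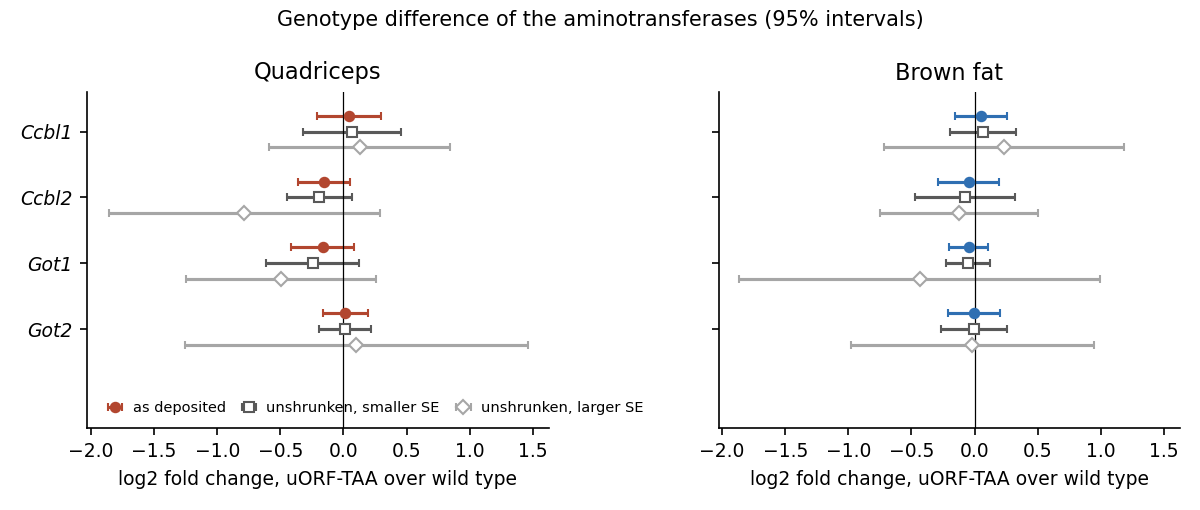
Log2 fold change of each aminotransferase, uORF-TAA over wild type, with 95% intervals, in quadriceps (left) and brown fat (right). Coloured points are the deposited values, open squares and diamonds the same values with shrinkage undone under the smaller and the larger standard error, and every interval includes 0.

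The choice changes the standard error most for Got1 in brown fat. Its deposited standard error, 0.0792, was below that of nearly all genes of like abundance, as 3.33% of the 3574 genes within 2-fold of its mean had a smaller one. The myofibre markers stood in the same place in brown fat, with errors of 0.0638 for Mb, 0.0653 for Acta1, 0.0681 for Tnnt3, 0.0687 for Ckm and 0.0755 for Myh4 in the authors' deposited table. At most 4.17% of the genes of like abundance lay below any of these 5. In quadriceps the deposited error of Got1 was 0.127, above that of 76.2% of the genes of like abundance. For Got1 in brown fat the smaller solution was -0.05 ± 0.09 (SE) on the log2 scale and the larger one -0.43 ± 0.73 (SE). Its small deposited error therefore does not by itself show that Got1 varied little among the brown fat libraries, and whether myofibre RNA had a part in it was not tested.

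**Figure D3:**
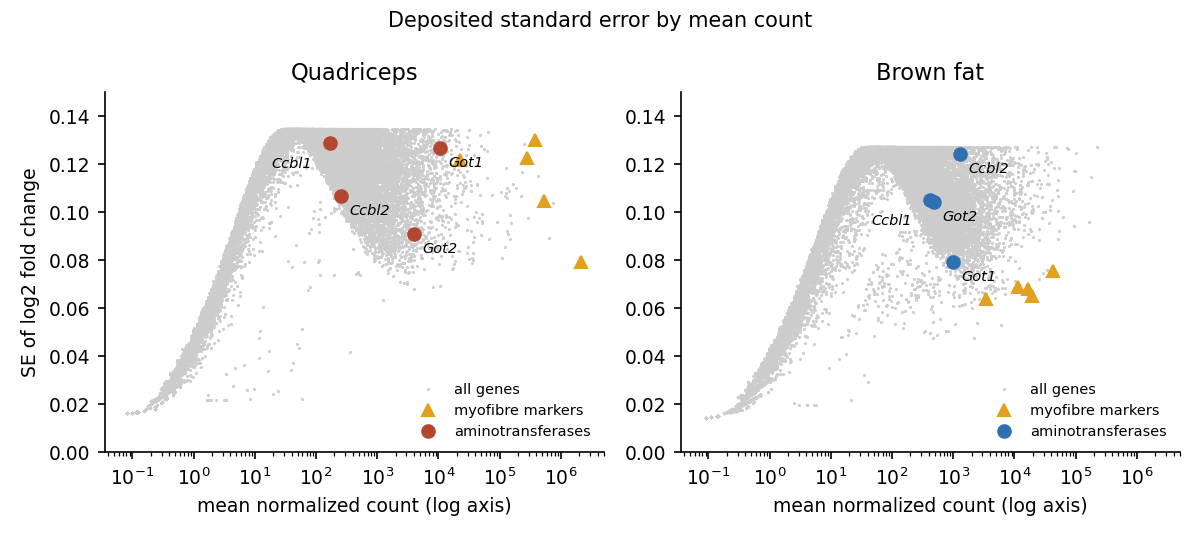
Deposited standard error of the log2 fold change against the mean normalized count (log axis) for all genes (grey), the 4 aminotransferases (coloured circles) and the 5 myofibre markers (triangles), in quadriceps (left) and brown fat (right). Grey points rise to a ceiling of 0.135 in quadriceps and 0.127 in brown fat and tend to lie lower at high counts. In brown fat Got1 and the myofibre markers lie at the lower edge for their abundance.

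The effect of the allele was also compared between tissues, by subtracting the log2 fold change of brown fat from that of quadriceps. It was -0.12 ± 0.15 (SE) for Got1, -0.11 ± 0.16 (SE) for Ccbl2, -0.0052 ± 0.17 (SE) for Ccbl1 and 0.02 ± 0.14 (SE) for Got2. Each had an adjusted p of 1.00 by the two-sided normal test of the difference over 16844 genes, of which 0.00% passed and 1.16% had an unadjusted p under 0.05. The unadjusted p of the 4 ran from 0.437 for Got1 to 0.975 for Ccbl1, so no difference between tissues was detectable for them. That test treats the tissues as independent and uses the shrunken values.

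The coactivator and the receptors tied to these genes were Ppargc1a, Ppara and Ppard. In the authors' deposited tables Ppargc1a stood at 0.06 ± 0.13 (log2 fold change, SE) in quadriceps and 0.0016 ± 0.11 (SE) in brown fat, with adjusted p = 1.00 in both by DESeq2. The allele changes an upstream reading frame, so the mRNA level is no check of the genotype labels. Ppara had 0.41 ± 0.12 (SE) in brown fat in the authors' deposited table, with p = 6.57e-04 unadjusted and an adjusted p of 0.321 by DESeq2, and -0.06 ± 0.11 (SE) in quadriceps. Ppard had -0.09 ± 0.13 (SE) in quadriceps and -0.09 ± 0.10 (SE) in brown fat in the authors' deposited tables. The aminotransferase fold changes ran from -0.05 to 0.05 in brown fat. Whether they depend on Ppara, which did not pass the adjusted threshold, was not tested.

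The steps of the pathway before and beside the aminotransferases were scarce in both tissues. Of the genes that make kynurenine (the dioxygenases Tdo2, Ido1 and Ido2 and the formamidase Afmid) and of those that draw it to other products (Kmo, Kynu, Haao, Acmsd and Qprt), 7 of the 8 listed in brown fat and 8 of the 9 listed in quadriceps had a mean normalized count under 10. The exception was Afmid, with a mean of 53.1 in brown fat and 56.0 in quadriceps in the authors' deposited tables. The kynurenine hydroxylase gene Kmo had deposited means of 9.71 in brown fat and 5.82 in quadriceps, and Ido1 had 6.75 in brown fat and 2.67 in quadriceps. None had an unadjusted p under 0.05, and no genotype difference was detectable at this depth.

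Of the 4 transport genes, Slc7a8 and Slc3a2 were abundant in brown fat. The amino acid carrier gene Slc7a8 had 118 level units in brown fat and 13.0 in quadriceps, and its partner chain Slc3a2 had 141 in brown fat and 15.8 in quadriceps. Slc7a5, the classical partner that carries tryptophan and kynurenine, had 0.547 level units in brown fat and 0.404 in quadriceps, and its ratio turned to 0.722 when scaled by the median ratio. Slc36a4, another tryptophan carrier gene, had 0.0989 level units in brown fat and 0.178 in quadriceps. In the genotype comparison the authors' deposited table put Slc7a8 at -0.28 ± 0.13 (log2 fold change, SE) in quadriceps, with p = 0.0387 unadjusted and an adjusted p of 1.00 by DESeq2. In brown fat all 4 transport genes were below 0, from -0.13 to -0.08, with 0 of 4 at an unadjusted p under 0.05. In quadriceps 2 of the 4 were below 0. Of all genes tested, 8778 of 17973 were below 0 in brown fat and 8465 of 17521 in quadriceps.

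Of the 8 genes for receptors of these metabolites and their targets, 0 had an unadjusted p under 0.05 in either tissue, and Tiparp had no deposited p in quadriceps. Gpr35, a receptor for kynurenic acid, had means of 10.9 in brown fat and 4.94 in quadriceps in the authors' deposited tables. Ahr, the aryl hydrocarbon receptor, which kynurenine and kynurenic acid can bind, had deposited means of 206 in brown fat and 63.3 in quadriceps. The authors' deposited table of quadriceps put its target Cyp1a1 at 0.18 ± 0.11 (log2 fold change, SE), with an unadjusted p of 0.0968 and an adjusted p of 1.00 by DESeq2. The 8 genes of NAD synthesis, to which another kynurenine branch leads, likewise had 0 at an unadjusted p under 0.05 in either tissue, with medians of 0.0089 in quadriceps and -0.04 in brown fat.

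The partners of Got1 and Got2 in the malate-aspartate shuttle were divided between the tissues. The cytosolic malate dehydrogenase gene Mdh1 stood in brown fat at 2.498 times its quadriceps level, the mitochondrial Mdh2 at 3.05 times and the oxoglutarate carrier gene Slc25a11 at 1.48 times. Scaled by the median ratio, Mdh1 stood at 1.33 and Mdh2 at 1.63 times, while Slc25a11 turned to 0.789 times, so its direction depends on the scaling. The aspartate-glutamate carrier gene Slc25a12 resembled Got1, at 0.108 times, and its relative Slc25a13 was scarce in both tissues, with means of 5.33 in brown fat and 9.99 in quadriceps in the authors' deposited tables. In the genotype comparison all 5 partners were above 0 in quadriceps, from 0.02 for Mdh2 to 0.11 for Slc25a13, with a median of 0.07 and 0 at an unadjusted p under 0.05. In brown fat 3 of the 5 were above 0, with a median of 0.01. Of all genes tested, 9056 of 17521 were above 0 in quadriceps and 9195 of 17973 in brown fat. Got1, at -0.16 in quadriceps in the authors' deposited table, lay below every partner there, and this difference between genes was not tested.

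Of the other aminotransferases, 8 were measured in quadriceps and 10 in brown fat. Gpt, the cytosolic alanine aminotransferase, stood at 0.30 ± 0.12 (log2 fold change, SE) in brown fat in the authors' deposited table, with p = 0.0113 unadjusted and an adjusted p of 1.00 by DESeq2. Abat, which breaks down GABA, stood at -0.25 ± 0.13 (SE) in the deposited table of quadriceps, with an unadjusted p of 0.0598 and an adjusted p of 1.00 by DESeq2. The mitochondrial alanine aminotransferase gene Gpt2 shared the tissue pattern of Got1 and Got2, at 0.150 of its quadriceps level in brown fat, and the branched-chain enzyme gene Bcat2 ran the other way, at 5.47 times. Gpt2 and Bcat2 were chosen after their values were seen. No gene of this list passed the adjusted threshold.

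The 4 genes of lysine breakdown around aminoadipate, the other substrate of the Aadat enzyme, had 0 at an unadjusted p under 0.05 in either tissue, and so did the 5 genes of cysteine breakdown and glutathione synthesis. The median log2 fold change of the lysine list was -0.02 in quadriceps and 0.02 in brown fat, and that of the cysteine list -0.04 in quadriceps and -0.0039 in brown fat. A count across all of these lists left out the aminotransferases that make kynurenic acid. In it, 1 of 53 genes in quadriceps and 2 of 55 in brown fat had an unadjusted p under 0.05 by DESeq2. They were Slc7a8 in quadriceps and Gpt and Ppara in brown fat, and none passed the adjusted threshold. Over all genes tested the share was 2.00% in quadriceps and 2.07% in brown fat. Such small counts are not read as a result about the lists.

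**Figure D4:**
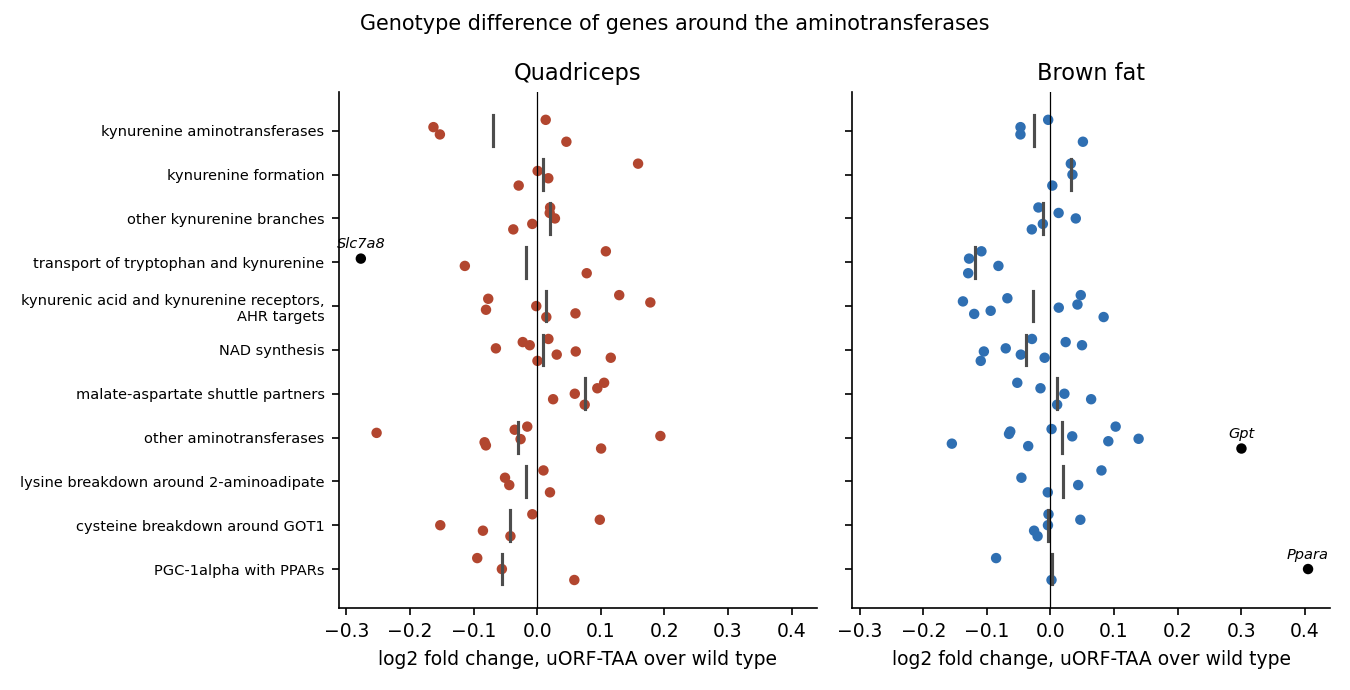
Log2 fold change of each listed gene, uORF-TAA over wild type, as deposited, in quadriceps (left) and brown fat (right), with 1 row of points per list and a vertical bar at its median. Black points had an unadjusted p under 0.05 and are named: Slc7a8 at -0.28 in quadriceps, and Gpt at 0.30 and Ppara at 0.41 in brown fat.

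Marker lists of other cell types were read in the same way. The 5 genes listed as brown adipocyte markers were all above 0 in brown fat, with a median of 0.10 and a range of 0.04 to 0.12. Of all genes tested there, 9195 of 17973 were above 0. The 5 myofibre markers ran from -0.12 to 0.07 in quadriceps. In brown fat the myofibre markers ran from -0.02 to 0.0066, on the shrunken scale. With the larger solution before shrinkage, their standard errors there ran from 0.78 for Myh4 to 0.95 for Mb. On that reading these values do little to limit a genotype difference in myofibre mRNA. Macrophage and endothelial markers, 3 each, had 0 at an unadjusted p under 0.05 in either tissue. Their part in the aminotransferase values was not tested.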

How the data were processed

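Stranded mRNA libraries were read from one end, per the labels' protocols. The submitters' processing notes name STAR 2.5.1b, mm9 and DESeq2 1.10.1 without their roles, and neither counter nor annotation is given in the sources used here. Each tissue has 1 deposited table of the authors' comparison. Its columns, per the file headers, are a mean normalized count (treated as a signal over the 8 libraries), a log2 fold change with its standard error on the log2 scale, a Wald statistic (a score), and a p-value with its adjusted p-value. No values per library were analysed, so the deposited test was used, with a threshold of 0.05 on the adjusted p, as the design had foreseen. Replicates are labelled by number only, and the spread behind the p-values may be technical in part.

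Estimated depth per library, from the means of genes with a single read, was 11.4 to 31.8 M counts (M for mega) in quadriceps and 11.0 to 17.8 M in brown fat. In brown fat 9272 of 17973 tested genes have an adjusted p. Transcript and coding lengths came from GENCODE M21, matched for 18437 of 18657 symbols. That annotation is on GRCm38 and the files on mm9, so no coordinates are given. Sequences were aligned with Biopython 1.88 and tests run with scipy 1.17.1 in Python 3.11.15. The adjustment of p and the difference between tissues were tested on simulated independent normal values. The undoing of shrinkage was tested on values drawn under its own formula with the smaller solution. These runs could not show whether the shrinkage reading, or which solution, holds for these data.

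The genes and lists were chosen with earlier results of these data known. Named genes are the aminotransferases, the shuttle partners, Ppargc1a, Ppara and Ppard, the cell type markers, and up to 4 genes of smallest p per list and tissue. A few others, named for their level, were chosen after their values were seen. A further marker list is not reported here. Alternatives were the adjustment of p, the threshold, centring, the sign of the brown fat table, the length, the scaling between tissues and the undoing of shrinkage. The last was added after seeing the data.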

Additional observations from a re-analysis of the deposited data

How the results depend on the processing

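The aminotransferase fold changes stayed short of the threshold under every adjustment and at a threshold of 0.1. Those settings leave the fold change itself as it is. Undoing shrinkage keeps the sign and the p of each gene by construction, so it could not turn a sign or a call. The fold changes kept their sign after centring, which was given no test. The difference between tissues of Ccbl1, near 0, changed sign with the brown fat sign as deposited (0.10). It also did so with shrinkage undone by the smaller solution in both tissues (0.0055). No other aminotransferase difference changed sign in these settings, but the larger solution was not applied to the differences. For Got1 the larger solution was -0.43 in brown fat, and the smaller was -0.24 in quadriceps. The sign of the Got1 difference therefore depends on which solution holds. At a threshold of 0.1 the count of quadriceps genes was 2, against 0 at 0.05, and with the brown fat sign as deposited 6 genes differed between tissues, against 0. With the coding length the levels per kilobase of Ccbl1, Ccbl2, Got1 and Got2 were 25.5, 73.6, 62.0 and 29.3 in brown fat, and 6.30, 8.91, 407 and 145 in quadriceps. Scaled by the median ratio of genes, the level in brown fat over quadriceps was 2.16 for Ccbl1, 4.397 for Ccbl2, 0.0812 for Got1 and 0.108 for Got2, and without the 50 highest genes of either tissue it was 2.76, 5.63, 0.104 and 0.138 in the same order. The directions of these 4 between tissues held in both. Slc25a11 stood at 0.789 by the median ratio and at 1.01 without those genes. No paired analysis was possible because the tables hold no values per library, and for the same reason no replicate could be left out. Depth limits the scarce genes: most kynurenine pathway genes had means under 10.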
